A study of Mus musculus with 20 samples.

Results

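The level of Gata2 was followed across the 12 libraries, of 20 in all, in which enhancer-null blood progenitors of the mouse had received a retroviral vector carrying GATA2, and every gene was set against it. The libraries were taken by their labels: 4 of R307W, 4 of T354M and 4 of wild-type GATA2. For each gene, the log2 count scaled to library size (CPM) was related to the log2 Gata2 CPM of the same library, within groups. The slope is therefore the log2 change of a gene for each doubling of Gata2, with every group keeping its own mean. The order of the libraries was chosen by the measured Gata2 level itself, so its values are given as a description, and Gata2 was left out of the tests. The level ran with the replicate number.

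All 12 vector libraries came from lineage-negative (Lin-) progenitors lacking the Gata2 -77 enhancer, a distal element upstream of the gene. The KO_R307W group received an MSCV vector, a murine stem cell retrovirus, coding for GATA2 R307W. The KO_T354M group received the same kind of vector coding for GATA2 T354M. The KO_GATA2 group received pMSCV-Gata2. The 4 KO_control libraries had the enhancer deletion and a control vector, and the 4 WT_control libraries had an intact enhancer and a control vector. For the GATA2 and control groups the labels name fetal liver at E14.5, the C57BL/6J background and growth with IL3 and SCF conditioned media. The labels of all 20 libraries give 3 days of culture. Beside that, the R307W and T354M records give the cell type and the vector. The labels do not say whether replicates were separate embryos or cultures, so p-values measure the spread between these libraries, which may be technical. Nor do they give the sequence of the vector inserts, and the counts do not separate vector Gata2 from the endogenous transcript.

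GATA2 is a zinc finger transcription factor that binds GATA motifs in blood stem and progenitor cells. In progenitors it works with cofactors such as FOG1 (gene Zfpm1), TAL1 and LMO2, and it is replaced at many sites by GATA1 as erythroid cells mature. It is required for mast cells and supports basophil and eosinophil development. R307W and T354M are amino acid substitutions in its zinc finger region known from people with GATA2 deficiency, a disorder of low monocyte and lymphoid counts with a risk of myeloid leukaemia.

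Gata2 (GRCm38 chromosome 6, 88193891 to 88207032) varied by more than 2-fold within each vector group. In R307W libraries it was 49.99, 39.97, 39.5 and 89.5 CPM in replicates 1 to 4, a mean of 54.8 ± 23.7 CPM (SD, n = 4). In T354M libraries it was 63.5, 33.6, 37.2 and 73.8 CPM, a mean of 52.0 ± 19.7 CPM (SD, n = 4). In GATA2 libraries it was 71.0, 76.7, 42.9 and 132.1 CPM, a mean of 80.7 ± 37.3 CPM (SD, n = 4). The highest library held 2.26, 2.20 and 3.08 times the Gata2 of the lowest in the R307W, T354M and GATA2 groups. The vector groups overlapped. KO_control libraries were all far below them, at 5.53, 5.24, 4.72 and 7.67 CPM, while WT_control libraries, at 53.0, 31.5, 41.8 and 50.9 CPM, overlapped the vector groups.

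Replicate 4 had the highest Gata2 in every enhancer-null group, the control-vector group included, and replicate 3 or 2 the lowest. Within the vector groups, the replicate number held 85.9% of the variance of log2 Gata2, the step between replicate 4 and the others held 68%, and 14.1% was left for differences within a number. The numbers also carried other RNA. The Y-linked helicase gene Ddx3y was 7.19, 53.0, 53.0 and 0 CPM in R307W replicates 1 to 4, against 7.52, 52.4, 53.2 and 0 CPM in KO_control libraries, and T354M and GATA2 libraries had the same order. Libraries of the same number in the 4 enhancer-null groups therefore shared a Ddx3y level, while WT_control libraries, at 45.1, 141.4, 0 and 45.8 CPM, did not. The Gata2 dose and the source of a numbered set of libraries cannot be told apart by group means alone. No slope was called with the number in the model, and slopes from that fit are given for the genes with values in each library and for most others named.

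**Figure D1:**
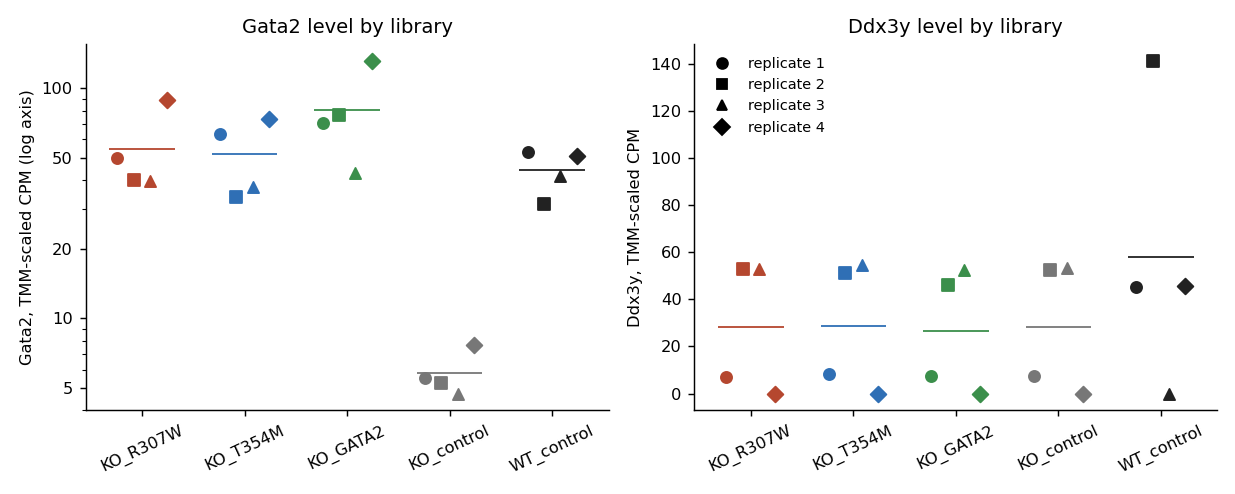
Gata2 (left, TMM-scaled CPM, log axis) and the Y-linked gene Ddx3y (right, TMM-scaled CPM) in each of the 20 libraries, with marker shape for the replicate number and a line for the group mean of 4 libraries. Replicate 4 is the highest in Gata2 in all 4 enhancer-null groups (89.5 CPM in R307W, 73.8 in T354M, 132.1 in GATA2 and 7.67 in KO_control), and it is at 0 CPM of Ddx3y in each of them.

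Replicate 4 was the deepest library of every group, at 33245876 expected counts in R307W, 31649662 in T354M, 29727013 in GATA2, 28138755 in KO_control and 26843817 in WT_control libraries, against 22785884 to 28521332 in the other vector libraries. Depth was therefore highest where Gata2 was highest in each enhancer-null group, and its part in the slopes, beyond the scaling to CPM, was not tested. The mitochondrial ribosomal RNA gene mt-Rnr2 took 17.9% to 24.6% of the counts over all 20 libraries. Marker genes of Lin- progenitor cultures were present (Kit 70.4 to 122.2 CPM and Cd34 112.5 to 297.8 CPM in vector libraries). Hepatocyte genes were too: 19 of 20 listed passed the filter, and their summed level was 199.95 to 1520 CPM in R307W, 421.1 to 2032 CPM in T354M, 419.4 to 1839 CPM in GATA2, 880.6 to 2441 CPM in KO_control and 1037 to 4253 CPM in WT_control libraries.

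Many genes followed Gata2 within groups. Mast cell, basophil and eosinophil effector genes, the erythroid regulators Klf1, Gata1 and Gfi1b, and several cytokine receptors were higher where Gata2 was higher. Monocyte, dendritic cell and interferon-response genes were lower. Of 15126 genes tested, 3012 had a slope at an adjusted p under 0.05 (19.9%), 1464 positive (9.68%) and 1548 negative (10.2%), by edgeR's quasi-likelihood test with Benjamini-Hochberg adjustment. The median slope was 0.45 among positive calls and -0.59 among negative calls, beside 0.01 over all genes. A slope of at least 1, a change in proportion to Gata2 or steeper, was seen in 198 positive calls, and 366 negative calls had a slope of -1 or lower. The sign was shared by the 3 proteins for 2972 of the 3012 called genes (98.7%), beside 57.2% of all genes. These genes were called on a slope pooled over the same libraries, so a shared sign follows largely from that choice and is not separate evidence. RNA was measured in bulk, so fewer cells of a type and less RNA per cell cannot be told apart in these slopes.

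None of the 15126 genes was called when the replicate number entered the fit (0%), with 1151 genes at an unadjusted p under 0.05 beside 4851 without it. That fit compares libraries only within a number, with 5 residual degrees of freedom and a median standard error of 0.22 per slope, against 0.11 without the number. Its slopes kept the sign for 1353 of the 1464 positive genes (92.4%) and 1496 of the 1548 negative genes (96.6%). Their medians were 0.28 over the positive and -0.41 over the negative genes, beside 0.01 over all genes. These genes were called on slopes in the same 12 libraries, so a kept sign follows in part from that choice. It is not separate evidence, and the share over all genes was not counted. With replicate 4 alone as a covariate 263 genes were called (1.74%), 121 positive (0.8%) and 142 negative (0.939%). In the 9 libraries of replicates 1 to 3 the count was 271 (1.79%), 128 positive (0.846%) and 143 negative (0.945%). A replicate block over 16 libraries, the 12 vector and 4 KO_control libraries, was added after the data had been seen and called 902 genes (5.96%), 190 positive (1.26%) and 712 negative (4.71%). In that fit the Gata2 term was set to 0 in KO_control libraries, so their own Gata2 levels did not enter. They inform the replicate effect, which was taken to be the same with and without the vector. Leaving out R307W replicate 4 alone lowered the count without the block to 1750.

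Y-linked genes ran with the number. Ddx3y, Eif2s3y, Kdm5d and Uty were among the 8 lowest slopes, at -4.69, -4.36, -4.15 and -4.05, and all were called, at an edgeR adjusted p of 0.00741, 0.0098, 0.00975 and 0.0111. With the replicate block their slopes were -0.07, -0.03, -0.04 and 0.22, none of them called. All 4 were at 0 to 0.03 CPM in replicate 4 of every enhancer-null group.

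**Figure D2:**
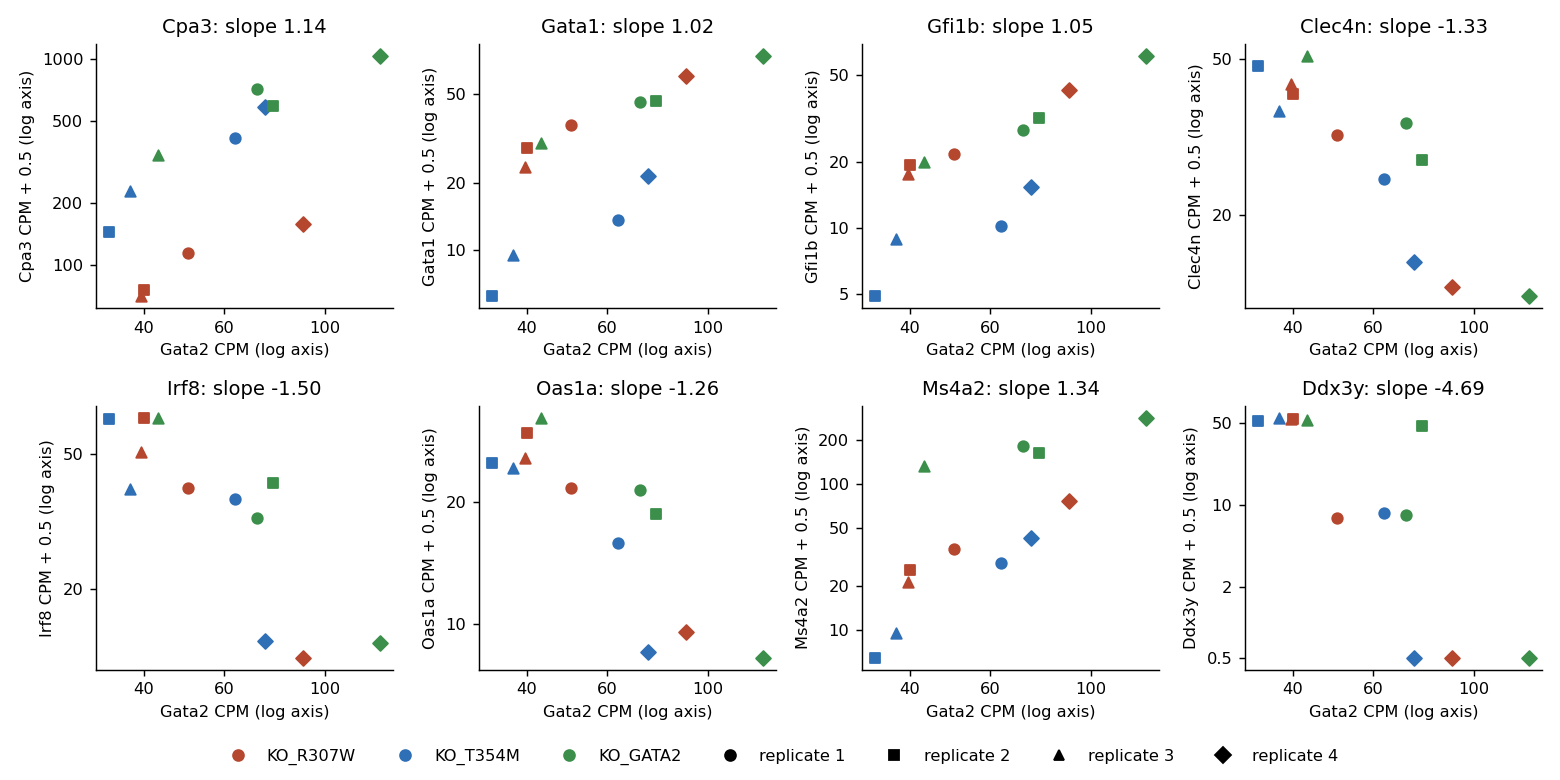
Level of 8 genes (CPM + 0.5, log axis) against Gata2 (CPM, log axis) in the 12 vector libraries, coloured by protein, with marker shape for the replicate number and the within-group slope in each title. Cpa3, Gata1, Gfi1b and Ms4a2 climb with Gata2 and Clec4n, Irf8 and Oas1a decline. Replicate 4 has the highest Gata2 within each protein. Ddx3y follows the replicate number, at 0 CPM in each replicate 4.

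Among GATA factors and their partners, 13 of 14 listed genes were tested and 8 rose with Gata2, 0 fell, and the list's median slope was 0.35, beside 0.01 over all genes. Gata1, the erythroid GATA factor (chromosome X, 7959260 to 7978071), was 35.7, 28.3, 22.9 and 59.9 CPM in R307W libraries, 13.2, 5.71, 8.98 and 21.0 CPM in T354M libraries and 45.5, 45.9, 29.6 and 73.5 CPM in GATA2 libraries. Replicate 4 was the highest in each group, and all T354M libraries were below all libraries of the other 2 proteins. Its slope was 1.02 ± 0.11 (SE, edgeR adjusted p = 0.000127), and with the replicate block 0.70 ± 0.29 (adjusted p = 0.623). Gfi1b, a repressor of erythroid and megakaryocytic progenitors, rose by 1.05 ± 0.11 per doubling (edgeR adjusted p = 0.000125), and its slope was as large with the replicate block, 1.05 ± 0.25 (adjusted p = 0.329). Gfi1b was called in the 16-library block (slope 0.74, edgeR adjusted p = 0.0229).

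Klf1, the erythroid Krüppel-like factor, and Zfpm1 had slopes of 1.14 ± 0.12 and 1.01 ± 0.14 (edgeR adjusted p of 0.000125 and 0.000416), and of 0.73 and 0.735 with the replicate block. Runx1, Tal1, Ldb1 and Myb rose less, by 0.56, 0.39, 0.35 and 0.30 per doubling (0.46, 0.57, 0.33 and 0.32 with the block), and Tal1 was not called without GATA2 replicate 4 (edgeR adjusted p = 0.0751). Lmo2, Lyl1, Fli1, Erg and Hhex did not pass, with slopes between -0.20 and 0.03. The list's summed level was 1010 to 1363 CPM in R307W, 962.2 to 1279 CPM in T354M and 920.9 to 1306 CPM in GATA2 libraries. Within KO_control libraries, replicate 4 was 0.54 above the mean of the others for Gata1 and 0.88 for Zfpm1 on the log2 scale, and the part of this in the slopes was not tested.

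By list median, the steepest positive slopes belonged to mast cell and basophil genes. Of 30 listed genes 23 were tested, 18 rose, and 1 fell (Hpgds, a prostaglandin D synthase, slope -1.08). The list's median slope was 1.27. The list's summed level was 1583 to 3079 CPM in R307W, 1260 to 2874 CPM in T354M, 2720 to 7293 CPM in GATA2 and 533.3 to 605.4 CPM in KO_control libraries. The tryptases Tpsab1 and Tpsb2 and the proteases Mcpt1, Mcpt2 and Mcpt4 did not pass the filter on low counts.

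Cpa3, the mast cell carboxypeptidase, was 114.6, 75.2, 70.5 and 157.9 CPM in R307W libraries, 413.5, 145.0, 228.4 and 589.4 CPM in T354M libraries and 719.1, 593.8, 342.6 and 1039 CPM in GATA2 libraries. Every group was highest in replicate 4 and lowest in replicate 2 or 3, which was also the order of Gata2 except that replicates 1 and 2 changed places in GATA2 libraries. Its slope was 1.14 ± 0.13 (edgeR adjusted p = 0.000177), 0.92 ± 0.29 with the replicate block (adjusted p = 0.471) and 1.08 in the 16-library block (adjusted p = 0.0164). In replicates 1 to 3 alone it was 1.36 (adjusted p = 0.0153). KO_control libraries held 9.36, 13.99, 14.4 and 14.3 CPM, with no high replicate 4.

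Hdc, the histamine-forming decarboxylase, was 371.1, 373.2, 356.6 and 580.1 CPM in R307W libraries, 417.8, 222.5, 308.8 and 585.8 CPM in T354M libraries and 569.5, 508.5, 280.2 and 914.3 CPM in GATA2 libraries. The 3 proteins overlapped. Its slope was 0.90 ± 0.10 (edgeR adjusted p = 0.000141) and 0.92 ± 0.28 with the replicate block (adjusted p = 0.459). Mcpt8, a basophil protease, had a slope of 1.15 ± 0.13 (edgeR adjusted p = 0.000207), 0.84 ± 0.37 with the block (adjusted p = 0.648) and 1.00 in the 16-library block (adjusted p = 0.0192). Mcpt8 stood at 18.4 to 57.8 CPM in R307W and 30.6 to 91.5 CPM in T354M libraries, all below the 255.4 to 1072 CPM of GATA2 libraries.

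Among the highest slopes of all named genes were Cma1, a mast cell chymase, at 2.57, and Prss34, a mast cell and basophil protease, at 1.74. Cma1 was 0 to 0.48 CPM in T354M libraries, so its slope there rests on few reads. Cyp11a1, a steroid-forming enzyme, Il9r, the interleukin 9 receptor, Gna14, a G protein subunit, and Avil, an actin-binding protein, had slopes of 1.70, 1.61, 1.66 and 1.72. With the replicate block the slopes were 2.18 for Cma1, 0.97 for Prss34, 1.08 for Cyp11a1, 0.70 for Il9r, 1.08 for Gna14 and 0.13 for Avil, none of them called. KO_control replicate 4 was itself 1.69 above replicates 1 to 3 for Prss34 and 1.04 for Avil on the log2 scale, and the part of this in their slopes was not tested. Car8, a carbonic anhydrase relative, had 1.602, with 2.47 to 34.4 CPM in GATA2 libraries and at most 1.32 CPM in the others, and it lost its call without GATA2 replicate 4 (adjusted p = 0.116). Its slope with the block was 0.65.

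The starts of these genes are shown because GATA motifs are the sites that the vector protein is known to bind. Sequences are RefSeq promoters on GRCm38.p6, 250 bases before to 50 after the start, read along the gene, and these 4 were chosen after the values had been seen. Capitals mark AGATAA or AGATAG or TGATAA or TGATAG on either strand. Prss34 lies at chr17:25298144-25298443 (+), Ms4a2 at chr19:11623670-11623969 (-), Cpa3 at chr3:20242132-20242431 (-) and Oas1a, an interferon-response gene with a negative slope, at chr5:120907476-120907775 (-).
Prss34: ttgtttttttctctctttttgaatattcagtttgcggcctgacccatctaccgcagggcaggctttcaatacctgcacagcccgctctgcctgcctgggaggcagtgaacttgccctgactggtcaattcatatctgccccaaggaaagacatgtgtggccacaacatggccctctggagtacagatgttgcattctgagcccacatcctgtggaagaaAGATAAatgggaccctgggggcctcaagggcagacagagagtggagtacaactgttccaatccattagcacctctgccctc
Ms4a2: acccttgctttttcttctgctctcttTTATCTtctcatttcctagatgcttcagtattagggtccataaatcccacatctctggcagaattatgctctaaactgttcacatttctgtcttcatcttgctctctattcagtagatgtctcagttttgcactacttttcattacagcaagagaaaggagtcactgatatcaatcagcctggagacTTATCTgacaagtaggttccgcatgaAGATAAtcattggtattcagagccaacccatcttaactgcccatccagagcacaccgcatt
Cpa3: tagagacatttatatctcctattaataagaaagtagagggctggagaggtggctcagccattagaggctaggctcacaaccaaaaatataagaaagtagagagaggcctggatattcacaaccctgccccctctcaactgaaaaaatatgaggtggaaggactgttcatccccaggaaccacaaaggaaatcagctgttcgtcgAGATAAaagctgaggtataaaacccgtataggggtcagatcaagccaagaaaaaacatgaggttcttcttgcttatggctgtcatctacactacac
Oas1a: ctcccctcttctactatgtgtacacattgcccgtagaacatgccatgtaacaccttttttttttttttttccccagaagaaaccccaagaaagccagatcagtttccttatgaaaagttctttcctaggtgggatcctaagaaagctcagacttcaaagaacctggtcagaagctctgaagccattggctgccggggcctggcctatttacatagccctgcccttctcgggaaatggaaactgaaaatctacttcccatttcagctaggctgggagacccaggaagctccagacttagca
Prss34 held 1 match starting 31 bases before the start, Cpa3 held 1 at 46 bases before it, Ms4a2 held 3 at 224, 37 and 11 bases before it, and Oas1a held 0. These 4 do not stand for the named genes, of which 19 of 47 with a promoter examined held a match. Gata1, Mcpt8 and Epx, with positive slopes, held 0, while Atf3 and Cd34, with negative slopes, held matches. A match was present in 24.6% of 1492 promoters of genes with a positive slope, 21.5% of 1494 with a negative slope, 19.0% of 10139 of genes tested and not called, and 29.8% of all 32851 promoters in the table. A match describes these letters and does not show binding.

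Eosinophil genes all rose, 10 of 10 tested of 11 listed, with a median slope of 1.09. Prg2, a major basic protein of the eosinophil granule, was 1449, 1403, 788.1 and 1792 CPM in R307W libraries, 2110, 661.5, 669.2 and 3863 CPM in T354M libraries and 2173, 2364, 1336 and 2329 CPM in GATA2 libraries. Replicates 2 and 3 were low in T354M, replicate 3 alone in the other groups, and T354M had the widest range. The slope of Prg2 was 1.09 ± 0.28 (edgeR adjusted p = 0.0169), and 0.36 ± 0.70 with the replicate block (adjusted p = 0.933). Epx, the eosinophil peroxidase, had a slope of 1.09 ± 0.29 (edgeR adjusted p = 0.0186), which was 0.17 ± 0.70 with the block (adjusted p = 0.974). Epx and Prg2 lost their calls without T354M replicate 2 (adjusted p of 0.0653 and 0.0585). Without that library 6 of the 10 genes were called. Alox15, a lipoxygenase, and Ear2, an eosinophil ribonuclease with near-identical copies and so an uncertain count, had slopes of 1.59 and 1.28, which were 0.43 and 0.06 with the block (adjusted p of 0.903 and 0.988). In the 16-library block 0 of the 10 were called and the list's median slope was 0.55.

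The eosinophil list summed to 1350 to 3400 CPM in R307W, 1107 to 5905 CPM in T354M, 1872 to 3304 CPM in GATA2 and 19.3 to 27.2 CPM in KO_control libraries. Epx was at 0.04 to 0.31 CPM in KO_control libraries. R307W libraries held 5.70 to 16.2 CPM of Epx, all below the 186.2 to 1167 CPM of T354M and 193.1 to 362.4 CPM of GATA2 libraries.

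Erythroid genes rose in 24 of 37 tested, of 38 listed, and 0 fell, with a median slope of 0.68. Car1, carbonic anhydrase 1 of red cells, had the lowest p, with a slope of 1.17 ± 0.10 (edgeR adjusted p = 9.54e-05) and 0.81 ± 0.30 with the block (adjusted p = 0.582). Klf1 was 11.9, 7.56, 7.06 and 22.0 CPM in R307W libraries, 1.82, 1.27, 1.66 and 2.64 CPM in T354M libraries and 16.4, 14.1, 8.40 and 33.1 CPM in GATA2 libraries. All 4 T354M values were below every value of the other 2 proteins. Without R307W replicate 4 or GATA2 replicate 4 the list had 12 and 14 calls. The receptor Epor rose by 1.05, while the haem enzyme Urod rose by 0.37. The globin genes Hba-a1, Hba-a2 and Hbb-bs, near-identical copies with uncertain counts, did not pass, at 0.78, 0.74 and 0.68. The globin genes Hbb-bt, Hbb-y and Hba-x passed, at 0.87, 1.78 and 2.38 (edgeR adjusted p of 0.0112, 0.0112 and 0.00245), the last 2 being embryonic globins with means of 3.33 and 0.89 CPM. With the block their slopes were 0.13, -0.705 and 0.97, and KO_control replicate 4 was 1.94, 3.155 and 3.02 above replicates 1 to 3 on the log2 scale.

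The 16-library block called 0 erythroid genes in the positive direction and 2 in the negative direction, Hba-a2 and Hbb-bs at -0.73 and -0.80. Replicate 4 of KO_control was itself high in this list, with a median of 0.35 on the log2 scale above replicates 1 to 3, against 0.77 in the vector libraries. The list's sum was 1446 to 2394 CPM in R307W, 1110 to 1352 CPM in T354M, 1473 to 2648 CPM in GATA2, 1119 to 1816 CPM in KO_control and 8429 to 12412 CPM in WT_control libraries. The part of the replicate in these slopes was not tested beyond the fits given.

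Megakaryocyte genes were mixed, with 4 of 22 rising (Slc24a3, Nfe2, Itga2b and Itgb3, by 0.85, 0.36, 0.53 and 0.43) and 3 falling (Thbs1, Clec1b and Gp6, by 0.63, 0.67 and 0.80). Over all genes 9.68% had a called positive and 10.2% a called negative slope. The megakaryocyte median was -0.07, and 1 fell without R307W replicate 4. Replicate 4 of KO_control stood 1.04 above the other replicates in the list's median, against 0.04 in vector libraries. Cytokine receptors and their signalling genes rose in 14 of 26 and fell in 6. Without R307W replicate 4, 8 rose. Il1rl1, the interleukin 33 receptor, Il3ra and Csf2rb, subunits of the interleukin 3 receptor, and Socs2, a feedback inhibitor, rose by 1.54, 0.84, 0.56 and 0.90 (0.91, 0.41, 0.21 and 0.14 with the block). Kit, the SCF receptor, had a slope of 0.22 and did not pass (edgeR adjusted p = 0.123).

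**Figure D3:**
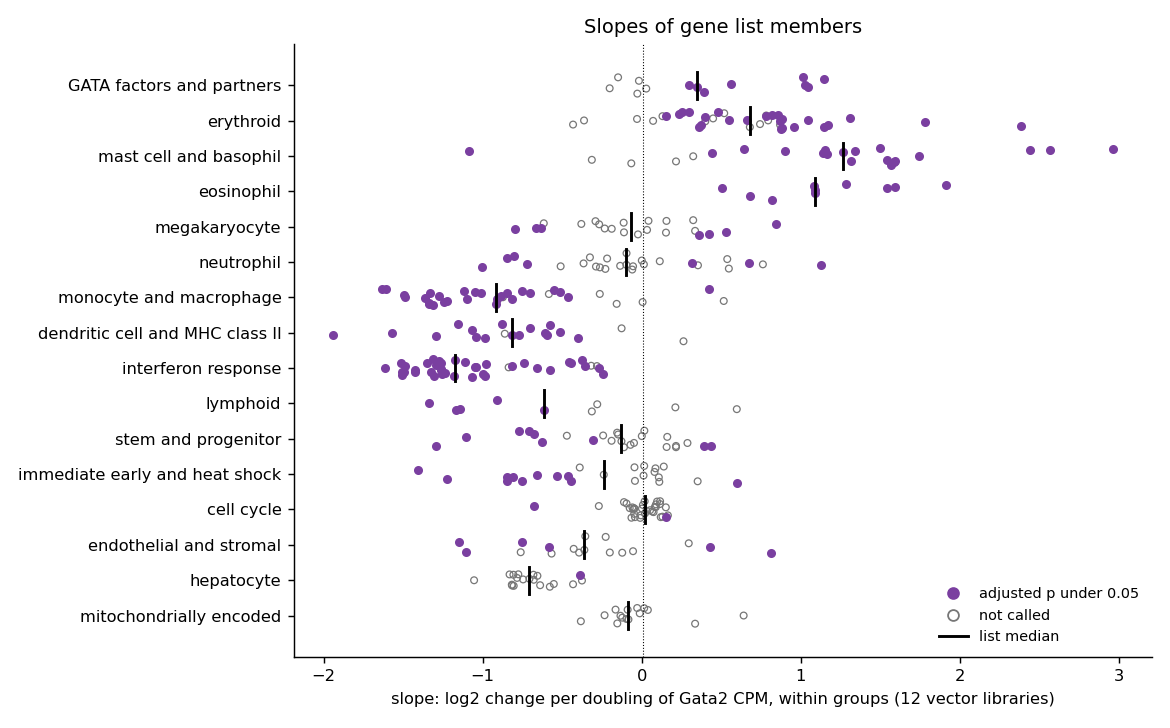
Within-group slope on Gata2 (log2 change per doubling, horizontal axis) of each tested member of 16 gene lists in the 12 vector libraries, filled where edgeR's adjusted p is under 0.05, with a bar at the list median. Eosinophil and mast cell lists lie to the right (medians 1.09 and 1.27) and interferon and monocyte lists to the left (medians -1.18 and -0.92), while the cell cycle list centres on 0.02.

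Monocyte and macrophage genes fell with Gata2 in 26 of 33 tested, of 34 listed, and 1 rose, Fcgr3 at 0.42. The list's median slope was -0.92. Clec4n, a lectin receptor of monocytes and the gene with the lowest p of any list, was 31.6, 40.2, 42.7 and 12.6 CPM in R307W libraries, 24.2, 47.5, 36.5 and 14.7 CPM in T354M libraries and 33.9, 27.2, 50.5 and 11.9 CPM in GATA2 libraries. Replicate 4 was the lowest in each group, and the 3 proteins overlapped throughout. KO_control libraries were higher, at 78.1, 69.2, 81.8 and 89.4 CPM, and replicate 4 was the highest of them. The slope was -1.33 ± 0.09 (edgeR adjusted p = 3.92e-05), -1.13 ± 0.14 with the replicate block (adjusted p = 0.124), -0.98 in replicates 1 to 3 (adjusted p = 0.0118) and -1.39 in the 16-library block (adjusted p = 0.000379).

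Ctss, a lysosomal protease of antigen-presenting cells, fell by 1.22 per doubling (edgeR adjusted p = 0.000113), and Csf1r, the macrophage growth factor receptor, by 1.27 (adjusted p = 0.000239), and their slopes with the block were -0.94 and -0.88. Irf8, the interferon regulatory factor that drives monocyte and dendritic cell fate, had a slope of -1.50 ± 0.20 (edgeR adjusted p = 0.000452), which was -0.78 ± 0.28 with the block (adjusted p = 0.565). Its levels were 39.3, 63.6, 50.4 and 12.1 CPM in R307W libraries, 36.4, 63.1, 38.9 and 13.6 CPM in T354M libraries and 31.95, 40.6, 63.6 and 13.3 CPM in GATA2 libraries. Replicate 4 was the lowest with each protein, and its 3 values were close although Gata2 there was 73.8 to 132.1 CPM. KO_control replicate 4 was not low, at 111.1 CPM, against 110.9, 106.7 and 95.5 CPM in KO_control replicates 1 to 3. Spi1, which encodes PU.1, had a slope of -0.26 and did not pass (edgeR adjusted p = 0.22).

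Of genes of dendritic cells and MHC class II, 16 fell of 19 tested, of 21 listed, with a median slope of -0.81 and 0 rising. Flt3, a receptor of early progenitors and dendritic cells, fell by 1.29 ± 0.12 (edgeR adjusted p = 9.74e-05), and its slope with the block was -0.80 ± 0.18 (adjusted p = 0.309). H2-DMa, a peptide loader for MHC class II, fell by 1.07, with a slope of -0.735 with the block. Without GATA2 replicate 3, 10 of the 19 were called. Clec9a and Xcr1, which mark cross-presenting dendritic cells, did not pass the filter. The monocyte list summed to 2663 to 6085 CPM in R307W, 2862 to 6940 CPM in T354M, 2736 to 5981 CPM in GATA2 and 8609 to 9231 CPM in KO_control libraries. The dendritic cell list summed to 199.2 to 376.0 CPM in R307W, 222.1 to 385.4 CPM in T354M, 197.7 to 427.1 CPM in GATA2 and 541.2 to 817.0 CPM in KO_control libraries. The 16-library block called 24 monocyte and 15 dendritic cell genes as falling.

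Interferon-response genes fell in 38 of 41, with 0 rising and a median slope of -1.18. Oas1a, an antiviral enzyme that has near-identical copies and so an uncertain count, was 21.2, 29.0, 25.2 and 9.09 CPM in R307W libraries, 15.3, 24.5, 23.7 and 8.05 CPM in T354M libraries and 20.9, 18.2, 31.8 and 7.78 CPM in GATA2 libraries. Each group was lowest in replicate 4. Its slope was -1.26 ± 0.11 (edgeR adjusted p = 9.54e-05) and -0.87 ± 0.16 with the block (adjusted p = 0.246). Ifit3, which also has close copies, had a slope of -1.42 ± 0.31 (edgeR adjusted p = 0.00763), -0.66 ± 0.30 with the block (adjusted p = 0.666) and -0.29 in replicates 1 to 3 (adjusted p = 0.535).

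The interferon slopes were smaller without replicate 4. In replicates 1 to 3, 5 of the 41 genes were called (Oas1a, Ifi27l2a, Ifi204, Rtp4 and Trim30a) and the list's median slope was -0.27, against -1.18 in 12 libraries. The list summed to 667.1 CPM in R307W replicate 4, 600.2 in T354M replicate 4 and 643.6 in GATA2 replicate 4, against 1138 to 1649 CPM in replicates 1 to 3 of the 3 proteins. In KO_control libraries the sum was 3124, 2530, 2211 and 2344 CPM, so replicate 4 lay inside the range of the others. The 16-library block called 34 of the 41 genes, all falling.

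Of 25 progenitor genes tested, 7 fell and 2 rose (Angpt1 and Tal1), and the list's median slope was -0.13. Over all genes 10.2% had a called negative and 9.68% a called positive slope, and Tal1 lost its call without GATA2 replicate 4. Cd34, a surface marker of progenitors, fell by 0.71 per doubling (edgeR adjusted p = 0.000239; slope -0.46 with the block), and Ly6a, which encodes Sca-1, by 1.11. Neutrophil genes were mixed: the granulocyte factor Cebpa, Cxcr2 and Padi4 rose by 0.32, 0.67 and 1.12, and Csf3r, S100a8, Fcnb and Chil3 fell by 0.80, 0.72, 0.85 and 1.00, of 26 tested, shares near those over all genes. Cebpa was 0.38 higher in replicate 4 than in replicates 1 to 3 of KO_control on the log2 scale, beside 0.37 in vector libraries. Lymphoid genes fell in 5 of 9 tested, of 18 listed (Cd7, Cd79b, Blnk, Ebf1 and Rag1), and in 3 without R307W replicate 4, T354M replicates 2 or 4, or GATA2 replicates 3 or 4. The 4 falling neutrophil genes were 1 or 2 without R307W replicate 4, T354M replicate 2 or GATA2 replicate 4.

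Immediate early and heat shock genes fell in 10 of 23 and 1 rose, Egr1 at 0.60. Without R307W replicate 4, 6 fell, and Egr1 was not called without R307W replicate 4 or GATA2 replicates 3 or 4. Fos and Atf3, stress-induced transcription factors, fell by 1.22 and 1.41, and both were also called in replicates 1 to 3 (edgeR adjusted p of 0.019 and 0.0273), with slopes of -1.05 and -0.83 under the block. The part of handling of the cells in these slopes was not tested. Of 33 cell cycle genes 1 rose, Tyms at 0.16, and 1 fell, the cyclin Ccnd1 at -0.68, and the median was 0.02. Tyms was not called without R307W replicate 4 or T354M replicates 2 or 4 (edgeR adjusted p of 0.152, 0.0518 and 0.0714). Of 15 mitochondrially encoded genes 0 were called. Of 17 endothelial and stromal genes 2 rose, Pdgfrb and Pecam1, by 0.81 and 0.43, and 4 fell, Kdr, Col4a1, Dcn and Tagln. Over all genes 9.68% had a called positive and 10.2% a called negative slope.

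Hepatocyte genes show a pattern that runs with the number in all enhancer-null groups. Alb, the serum albumin gene, was 189.7, 85.2, 65.0 and 18.5 CPM in R307W libraries, 287.7, 129.2, 68.2 and 41.5 CPM in T354M libraries, 226.3, 91.4, 102.5 and 35.2 CPM in GATA2 libraries and 299.3, 131.3, 200.5 and 69.6 CPM in KO_control libraries. Replicate 1 was the highest and replicate 4 the lowest in each. Its slope of -0.71 ± 0.74 did not pass (edgeR adjusted p = 0.551). Of 19 tested members of the hepatocyte list 1 was called, Amot at -0.39, and the list's median slope was -0.71. Amot ranged far less than Alb, at 17.0 to 20.4 CPM in KO_control libraries. Its call is therefore not read as a hepatocyte signal. Amot lost its call without any 1 of R307W replicates 2 to 4, T354M replicates 2 and 4 or GATA2 replicates 3 and 4, at an edgeR adjusted p of 0.0507 to 0.186.

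Every gene list had 0 called members with the replicate block. The list medians with the block were 0.33 for GATA partners, 0.36 for erythroid, 0.71 for mast cell and basophil, 0.30 for eosinophil, -0.41 for interferon, -0.74 for monocyte and -0.49 for dendritic cell genes, beside 0.01 over all genes. The median standard error in these lists was 0.20 to 0.66.

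**Figure D4:**
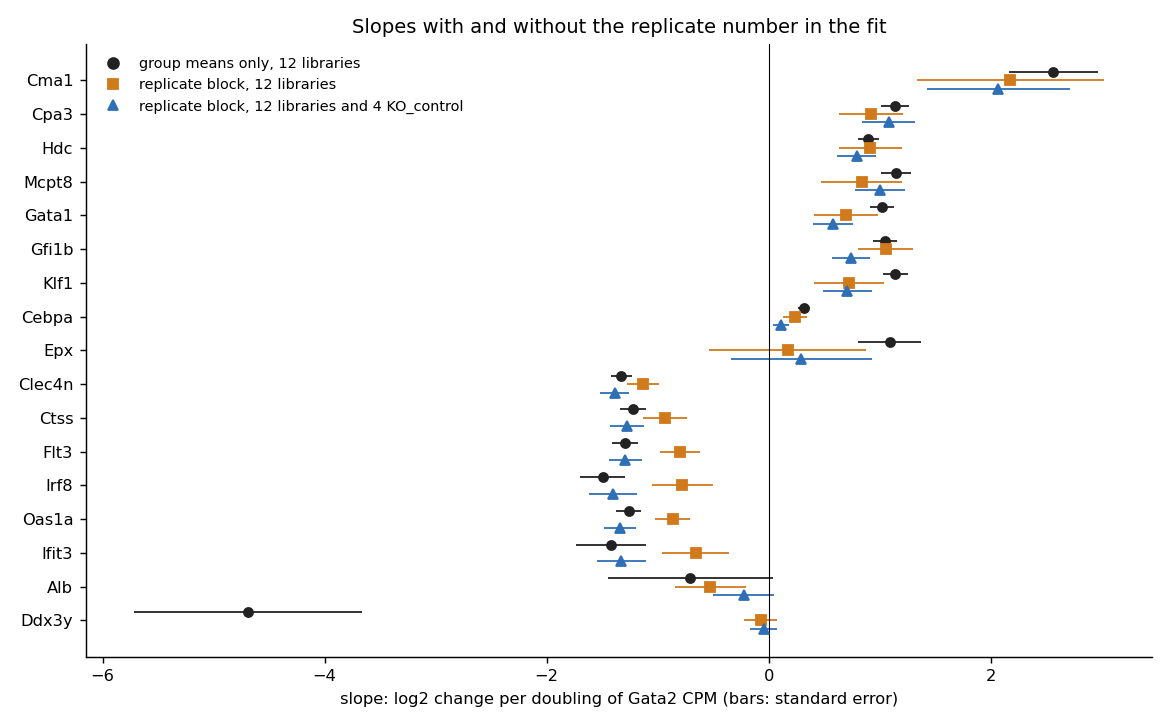
Slopes on Gata2 of 17 named genes (log2 change per doubling, horizontal axis, bars are standard errors) from group means alone in 12 libraries (circles), with a replicate block in 12 libraries (squares) and with a replicate block after adding the 4 KO_control libraries (triangles). In the last fit the Gata2 levels of KO_control libraries did not enter. Gfi1b and Hdc have the same slope with and without the block (1.05 and 1.05, 0.90 and 0.92), Epx is at 1.09 without and 0.17 with it, and Ddx3y is at -4.69 without and -0.07 with it.

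The control-vector libraries carry the replicate numbers without a Gata2 vector. Replicate 4 against replicates 1 to 3 called 2910 of 15126 genes in vector libraries (19.2%), 1269 higher (8.39%) and 1641 lower (10.8%), and 6 of 14805 genes in control-vector libraries (0.0405%), all higher, with 2231 at an unadjusted p under 0.05. The 6 were the histone genes Hist1h2bl, Hist1h2bp and Hist1h4i, the platelet gene Vwf, AY036118 and CT010467.1. The control count was 3 without KO_control replicate 1 or WT_control replicate 3 and reached 248 without KO_control replicate 4 and 329 without WT_control replicate 1, and WT_control numbers did not share the Ddx3y pattern. The control-vector fit gave KO_control and WT_control 1 shared replicate 4 term. It did not call Ddx3y (log2 difference -1.84, edgeR adjusted p = 0.623), although KO_control replicate 4 was at 0 CPM of Ddx3y. The count of 6 therefore cannot show that the number has little effect without a Gata2 vector. The difference between the 2 sets of libraries was not itself tested.

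Within KO_control alone, genes with a positive slope were 0.12 higher in replicate 4 than in replicates 1 to 3 at the median, on the log2 scale, against 0.46 in R307W, 0.34 in T354M and 0.44 in GATA2 libraries. Genes with a negative slope were -0.02 in KO_control, against -0.61, -0.48 and -0.51 in R307W, T354M and GATA2 libraries. These medians describe genes chosen for their slope in the vector libraries, and KO_control was not used to choose them. The Gata2 level of KO_control replicate 4, at 7.67 CPM, was also above that of the other KO_control libraries.

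A separate comparison of enhancer loss, KO_control against WT_control, shares no library with the slopes. It called 5771 of 14805 genes (39%), 2716 higher (18.3%) and 3055 lower (20.6%). Of 1394 genes with a positive slope tested in both, 828 were lower on enhancer loss (59.4%) and 73 higher (5.24%). Of 1535 genes with a negative slope, 1080 were higher on enhancer loss (70.4%) and 51 lower (3.32%). Over all 14466 genes tested in both, 20% were lower and 18.7% higher. Read the other way, 28.7% of the genes lower on enhancer loss had a positive slope, and 40% of those higher had a negative slope. On the log2 scale, Gata1 fell by 4.03 on enhancer loss (edgeR adjusted p = 1.35e-07), and Irf8 was 2.95 higher (adjusted p = 9.82e-08).

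Slopes could also be set beside the change that each vector gave over KO_control per doubling of Gata2. For Cpa3 that change was 0.91 in R307W, 1.48 in T354M and 1.48 in GATA2 libraries, near its within-group slope of 1.14. For Clec4n it was -0.41, -0.43 and -0.36, smaller in size than its within-group slope of -1.33. For Irf8 it was -0.42, -0.46 and -0.39, against -1.50. For Klf1 it was 0.69 in R307W and 0.73 in GATA2 libraries and -0.07 in T354M libraries, against 1.14. These values share the vector libraries with the slopes and were not tested.

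Next the 3 proteins were given a slope each. Within R307W 614 genes were called (4.06%), within T354M 424 (2.8%) and within GATA2 600 (3.97%). Each of these slopes rests on 4 libraries and largely on replicate 4: the counts were 0 without R307W replicate 4, 10 without T354M replicate 4 and 0 without GATA2 replicate 4, and also 2 without R307W replicate 3, 11 without T354M replicate 2 and 0 without GATA2 replicate 3. The R307W count was also 160 without R307W replicate 2, and 405 and 395 without GATA2 replicates 2 and 4. The T354M count was 699 without T354M replicate 1, 219 without R307W replicate 3 and 263 to 275 without a GATA2 library. The GATA2 count was 392 without GATA2 replicate 2 and 340 without R307W replicate 3. With the replicate block 0 were called within each protein. The median standard error of a slope was 0.20 in R307W, 0.20 in T354M and 0.16 in GATA2.

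Whether slopes differed between the 3 proteins was tested for each gene with 2 degrees of freedom. None of 15126 genes was called by edgeR (0%), with 592 at an unadjusted p under 0.05, and DESeq2's likelihood ratio test called 82. Over the 3 pairs, R307W minus GATA2 called 0 genes (443 unadjusted), R307W minus T354M called 0 (501 unadjusted) and T354M minus GATA2 called 4 (0.0264%, 726 unadjusted). The 4 were the mast cell and basophil genes Prss34 and Ms4a2, steeper in T354M, and Tmem56 and Pkhd1l1, which had a negative slope in T354M and a positive one in GATA2. Pkhd1l1 was named after its values had been seen. All 4 calls were lost with the replicate block, in replicates 1 to 3, and without any 1 of the 4 GATA2 libraries or of T354M replicates 2 to 4.

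Ms4a2, the beta chain of the IgE receptor, was 35.3, 25.1, 20.9 and 76.3 CPM in R307W libraries, 28.4, 5.94, 9.05 and 42.2 CPM in T354M libraries and 180.3, 162.8, 132.6 and 284.0 CPM in GATA2 libraries. GATA2 libraries were all above those of both variants. T354M libraries spanned the widest range, with replicates 2 and 3 low. Its slope was 1.47 in R307W, 2.37 in T354M and 0.67 in GATA2, and the T354M slope exceeded that of GATA2 by 1.70 (edgeR adjusted p = 0.0244). Prss34 had slopes of 1.62, 2.95 and 0.99 in R307W, T354M and GATA2, and the difference of T354M from GATA2 was 1.96 (edgeR adjusted p = 0.0341).

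Tmem56, a multi-pass membrane protein gene, was 3.49, 3.28, 3.30 and 4.92 CPM in R307W libraries, 0.94, 1.62, 1.84 and 0.84 CPM in T354M libraries and 10.2, 12.4, 5.51 and 27.9 CPM in GATA2 libraries. The 3 groups did not overlap, and the T354M values were the lowest where Gata2 was highest. Its slopes were 0.50 in R307W, -0.98 in T354M and 1.45 in GATA2, and T354M minus GATA2 was -2.43 (edgeR adjusted p = 0.0222). Pkhd1l1 had slopes of 0.20, -0.78 and 1.44, with T354M minus GATA2 at -2.22 (edgeR adjusted p = 0.0324). Among the 6 genes with the lowest p and not called, Id2, an inhibitor of basic helix-loop-helix factors, had slopes of -1.21 in R307W, -1.11 in T354M and -0.02 in GATA2. Il7r, the interleukin 7 receptor, had -0.64, -0.51 and 1.13, and its shared slope of 0.21 turned to -0.21 and -0.20 without GATA2 replicates 3 and 4. Pilrb2, a paired immunoglobulin-like receptor, had slopes of -0.73, 0.63 and 0.95.

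By list, the medians were 0.72 in R307W, 2.18 in T354M and 0.53 in GATA2 for eosinophil genes, where 7 of 10 had an unadjusted p under 0.05 for slopes that differ and 0 were called. For erythroid genes they were 0.65, 0.16 and 1.00, where 15 of 37 had such a p and 0 were called. Alas2, the first enzyme of erythroid haem synthesis, had slopes of -0.60, 0.13 and 2.03, and Ank1, the red cell ankyrin, 0.98, -0.49 and 1.48. Mast cell and basophil medians were 1.11, 1.33 and 0.98, with 10 of 23 at such a p. Interferon medians were -1.44, -0.95 and -1.06 and monocyte medians -1.21, -1.07 and -0.80, with 0 of 41 and 2 of 33 at such a p. Beside these counts, 592 of 15126 genes had such a p. Members of a list share libraries and are not replicates, and a slope that misses the threshold is not shown to be alike between proteins.

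**Figure D5:**
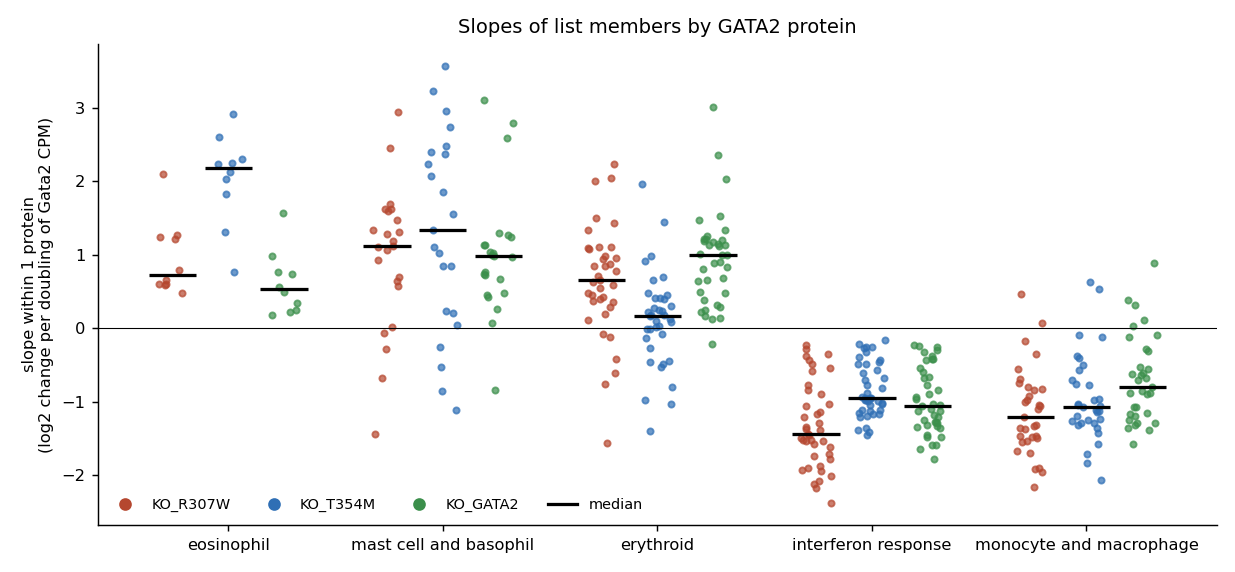
Slope on Gata2 within each protein (log2 change per doubling, vertical axis) for members of 5 gene lists, with a line at the list median. Eosinophil slopes sit highest in T354M (median 2.18) above R307W (0.72) and GATA2 (0.53), erythroid slopes sit lowest in T354M (median 0.16), and interferon slopes are below 0 with every protein.

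The proteins were then compared at the same Gata2 level, because GATA2 libraries averaged more Gata2 than those of the variants. The labels do not say whether the R307W and T354M libraries were made in the same experiment as the GATA2 libraries, so the protein and any such difference in preparation cannot be told apart in a variant minus GATA2 value. With the level as a covariate, R307W minus GATA2 called 463 genes (3.06%), against 172 without it (1.14%), 164 of them called both ways in the same direction (1.08%). T354M minus GATA2 called 1777 (11.7%) with the level and 1461 (9.66%) without it, with 1225 shared (8.1%). R307W minus T354M called 986 (6.52%) with the level and 384 (2.54%) without it, and all 384 were shared. With the replicate block added, the counts at the same level were 92 for R307W minus GATA2, 795 for T354M minus GATA2 and 1378 for R307W minus T354M. R307W minus GATA2 had 66 calls without R307W replicate 4, 295 without R307W replicate 1 and 250 without GATA2 replicate 1. T354M minus GATA2 had 776 without T354M replicate 4, and R307W minus T354M had 578 and 606 without R307W and T354M replicate 4.

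Cpa3 stayed lower in R307W than in GATA2 libraries at the same Gata2 level, with a log2 difference of -2.06 ± 0.18 (edgeR adjusted p = 0.000227), beside -2.69 ± 0.46 without the level (adjusted p = 0.0181), and it was -2.17 with the level and the replicate block (adjusted p = 0.00279). For T354M minus GATA2 the difference of Cpa3 was -0.37 with the level (edgeR adjusted p = 0.204). Mcpt8 was lower in both variants at the same level, with log2 differences of -3.52 in R307W and -2.77 in T354M (edgeR adjusted p of 3.61e-06 and 1.57e-05), and both calls held with the block (adjusted p of 0.0006 and 0.00107). Hdc did not pass in either, at 0.14 and 0.01.

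Gata1, Gfi1b and Klf1 were lower in T354M than with either of the other proteins. At the same Gata2 level T354M minus GATA2 was -1.43 ± 0.15 for Gata1, -1.24 ± 0.15 for Gfi1b and -2.49 ± 0.18 for Klf1 (edgeR adjusted p of 0.000116, 0.000391 and 1.57e-05). R307W minus GATA2 was 0.12 for Gata1, 0.10 for Gfi1b and 0.06 for Klf1, none of them called, and R307W minus T354M was 1.55, 1.34 and 2.55 (edgeR adjusted p of 5.07e-05, 0.000164 and 5.65e-06). With the replicate block these differences of T354M were all called, at an edgeR adjusted p of 0.00417, 0.00655 and 0.000687 for T354M minus GATA2 and 0.000191, 0.000178 and 2.86e-05 for R307W minus T354M. Without the level, T354M minus GATA2 was called for all 3 (adjusted p of 0.0108, 0.0161 and 0.00172), while R307W minus T354M was called for Klf1 (2.71, adjusted p = 0.0121) and missed the threshold for Gata1 (1.58, adjusted p = 0.0706) and Gfi1b (1.41, adjusted p = 0.122). Zfpm1 did not pass in any pair at the same level, at 0.26 in R307W minus GATA2, -0.295 in T354M minus GATA2 and 0.55 in R307W minus T354M (edgeR adjusted p of 0.583, 0.386 and 0.102).

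Eosinophil genes went their own ways. Epx was -4.03 ± 0.41 in R307W minus GATA2 and 1.29 ± 0.36 in T354M minus GATA2 at the same level (edgeR adjusted p of 0.000476 and 0.0364). Without the level the T354M difference of Epx was 0.90 and did not pass (adjusted p = 0.337), and with the level and the block it was 0.71 (adjusted p = 0.481). Ear2 ran opposite to Epx, at 2.43 in R307W minus GATA2 and -1.56 in T354M minus GATA2 (edgeR adjusted p of 0.00404 and 0.0148). With the block the R307W difference of Ear2 was 1.73 and missed the threshold (adjusted p = 0.0734). Prg2 did not pass in either pair, at -0.04 and 0.19.

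Clec4n and Oas1a passed between proteins with the level in the fit and not without it. Clec4n was -0.64 in R307W minus GATA2 and -0.76 in T354M minus GATA2 at the same level (edgeR adjusted p of 0.0172 and 0.00232), while without the level it was 0.04 and -0.01 and did not pass. With the block the R307W difference of Clec4n was -0.52 and missed the threshold (adjusted p = 0.0562). Oas1a was -0.84 in T354M minus GATA2 with the level (edgeR adjusted p = 0.00352) and -0.14 without it (adjusted p = 0.922). These differences take the slope to be shared by the 3 proteins. Ddx3y, which ran with the replicate number, also moved when the level entered. For R307W and T354M minus GATA2 it was 0.09 and 0.10 without the level and -3.12 and -3.25 with it. With the level and the block it was 0.02 and 0.06, and none of these values was called. The part of the replicate number in differences at the same level was not tested beyond the block.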

How the data were processed

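RNA-seq of mouse blood progenitors was deposited as gene-level RSEM tables for 20 libraries. Per the submitters' processing notes, STAR 2.5.2b, RSEM 1.3.0 and the mm10 build were used; kit strandedness is not given in the sources used here. The deposited expected counts were estimated by the authors and need not be whole; the deposited TPM values, scaled by the authors per length and library size, served in 1 alternative. Tables hold 53379 gene identifiers, 53274 with a symbol.

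Expected counts were rounded and tested with edgeR 4.0.16 (R 4.3.3; filterByExpr over the 12 vector libraries, TMM factors over all 20, quasi-likelihood F test, Benjamini-Hochberg over 15126 genes, called at an adjusted p under 0.05). The covariate was log2 TMM-scaled Gata2 CPM, centred within group. Other fits gave each protein a slope, left the level uncentred, or added the replicate number. Alternatives used limma 3.58.1 on log2(TPM + 1), DESeq2 1.42.0, other scaling and filters, and left out each library. The slope scripts were checked on simulated data. Slopes rest on count levels in CPM; comparison between genes is of slopes only.

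Replicate numbers come from the labels. Deviations from group means of same-numbered libraries correlated at 0.193 to 0.759 over the 12 pairs among vector groups, each above 0.1. Between unlike numbers the correlation was at most 0.426, so the ranges overlapped, and in 9 of 12 cases it was highest with the same number. Between vector and KO_control libraries the same-number range was -0.01 to 0.379, with 11 of 12 highest with the same number. The numbers were taken to pair the libraries, and blocked values are given for the counts and most named genes. Replicates differed by 18.1 to 115 chi-square per degree of freedom, so no library was a copy of another.

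Named genes were Gata2, the 8 highest and 8 lowest called slopes (mean of at least 5 CPM, the same sign in 3 groups), the 2 members of lowest adjusted p of each list with a call, the 6 with the lowest p for unlike slopes, and a panel of 15; others are list members. Members, lists and tests were chosen with earlier results of these data known. No set test was run.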

Additional observations from a re-analysis of the deposited data

Results flagged for a closer look

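In 10 of 186 sets of 4 libraries (62 named genes in 3 vector groups) the highest or lowest library stood apart from the other 3, where chance gives about 1 in 20, and each time it was replicate 4. The share of sets was therefore about that of chance. Many of these genes were named for their slope on Gata2, which was highest in replicate 4, so that replicate 4 stood apart follows in part from their choice. In R307W libraries replicate 4 was the high value for Prss34 (166.0 CPM, next 57.9), Avil (22.7 CPM, next 7.56), Gfi1b (42.2 CPM, next 21.4), Hdc (580.1 CPM, next 373.2), Cebpa (109.4 CPM, next 84.9), Tyms (101.1 CPM, next 85.9) and Tmem56 (4.92 CPM, next 3.49). It was the low value for Cd79b (7.52 CPM, next 12.2) and Amot (8.91 CPM, next 14.46). In T354M libraries replicate 4 was the high value for Car8 (1.32 CPM, next 0.46). No GATA2 library was picked out, although GATA2 replicate 4 has the highest Gata2 of all.

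Slopes on Gata2 differed between T354M and GATA2 by a test of the difference itself for Prss34 (1.96 higher in T354M, edgeR adjusted p = 0.0341), Ms4a2 (1.70 higher, adjusted p = 0.0244) and Tmem56 (-2.43, adjusted p = 0.0222), and these calls were lost with the replicate block.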

How the results depend on the processing

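The replicate number is the choice that moved most results. With the replicate block, which pairs libraries of the same number, genes with a called slope went to 0, against 3012 without it, slopes within R307W, T354M and GATA2 to 0 each, T354M minus GATA2 slope differences to 0, and protein differences at the same level to 92 (R307W minus GATA2), 795 (T354M minus GATA2) and, higher than the 986 without it, 1378 (R307W minus T354M). With replicate 4 as a covariate the slope count was 263, and within R307W, T354M and GATA2 it was 0, 99 and 0. Without replicate 4 of all vector groups it was 271, with 0, 17 and 1 within the proteins and 0 for T354M minus GATA2. The replicate block over 16 enhancer-null libraries called 902, and leaving out the 2 libraries farthest in Gata2 (GATA2 and R307W replicate 4) called 861. limma on log2(TPM + 1) called 598. Without a filter on low counts, 70 genes had slopes that differ, the pairs had 18 (R307W minus GATA2), 65 (T354M minus GATA2) and 14 (R307W minus T354M), the slopes within R307W, T354M and GATA2 1073, 793 and 998, and replicate 4 in control-vector libraries 837. DESeq2 called 82 genes for slopes that differ and 3474 for the slope. The cause of these shifts was not tested, other than fewer libraries or degrees of freedom where those were cut.

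Leaving out 1 library at a time gave 1750 to 3356 called slopes, 0 to 1 genes with slopes that differ, 0 to 1, 0 to 7 and 0 to 1 for R307W minus GATA2, T354M minus GATA2 and R307W minus T354M, 0 to 861, 10 to 699 and 0 to 803 within R307W, T354M and GATA2, 66 to 542, 776 to 1887 and 578 to 1081 for the same 3 pairs at the same level, 3 to 329 for replicate 4 in control-vector libraries and 4866 to 5990 for enhancer loss. Signs turned for Uty (0.22 with the block, 0.25 in the 16-library block), Alb (1.31 with replicate 4 as covariate, 1.43 in replicates 1 to 3, 0.72 without the 2 farthest libraries), Amot (0.036 in replicates 1 to 3), Tmem56 (-0.11 without the 2 farthest) and Il7r (-0.21 and -0.20 without GATA2 replicates 3 and 4, up to 0.493 without R307W replicate 4), none of them called there. Other size factors changed no call among the 61 named genes. Depth limits genes near 0, such as Cma1 in T354M libraries.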
